A study of Mus musculus with 4 samples.

Results

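The S100 calcium-binding protein family was examined in the tibial bone marrow of obese mice with and without exercise. The 8 genes S100a8, S100a9, S100a6, S100a4, S100a10, S100a11, S100a13 and S100a1 were taken by name from the transcript tables, out of 55401 annotated genes, and the FPKM of the transcripts of each gene were summed. FPKM scales the fragments to the length of the transcript and to the size of the library, so it can be compared between genes. Scaled FPKM, used throughout, are divided by 1 factor per library. The rule uses gene names and no measured value. All 8 passed the filter for testing, which kept 18596 genes with a mean of at least 0.1 FPKM.

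Male C57/B6 mice received a high-fat diet (HFD) from the age of 8 weeks, and after 6 weeks on it they were divided into an obesity group (Ob) and an obesity-combined-with-exercise group (Ob + Exe) of 9 mice each. The Ob + Exe mice then ran at moderate intensity for 1 h per day on 6 days per week over 12 weeks, and both groups stayed on the HFD. Marrow of 2 mice of each group was sequenced, with each library taken as 1 mouse, so all 4 libraries come from obese mice and no lean or chow-fed mice are part of the comparison. The comparison asks what running on top of the diet changed in the marrow. The labels also call the material mesenchymal stem cells and fibroblasts, but the poly-A RNA was that of marrow spun out of the bone, and its most abundant markers were those of blood cells. The summed level of 9 fibroblast and stromal markers was 106 to 167 scaled FPKM, most of it from Cxcl12, against 54511 to 81499 for 10 erythroid genes and 5873 to 10214 for 4 genes of neutrophil secondary granules. In whole marrow, a change in the number of cells of a type and a change in RNA per cell cannot be told apart.

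S100 proteins are small proteins with a pair of calcium-binding loops, called EF-hands. Most of them pair up as dimers, and calcium opens a surface that grips a target protein. S100a8 and S100a9 form the heterodimer calprotectin, which fills the cytoplasm of neutrophils, binds zinc and manganese and, once released, signals through Toll-like receptor 4 and the receptor for advanced glycation end products. The other members act mostly inside cells, on annexins, myosin and calcium channels, and several are abundant in monocytes, fibroblasts or muscle.

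All 8 genes lie on chromosome 3 (GRCm38). From S100a1 to S100a9, 6 of them share 185 kb, between 90511034 and 90695721, while S100a11 (ENSMUSG00000027907.4, 93520488 to 93526287, plus strand) and S100a10 (ENSMUSG00000041959.14, 93555080 to 93564643, plus strand) stand 2.82 Mb further on and 28.8 kb apart. S100a8 (ENSMUSG00000056054.9, 90668978 to 90670035, plus strand) and S100a9 (ENSMUSG00000056071.12, 90692632 to 90695721, minus strand) point toward each other across 22.6 kb. S100a1 (ENSMUSG00000044080.9, 90511034 to 90514392, minus strand) and S100a13 (ENSMUSG00000042312.10, 90514435 to 90524581, plus strand) are head to head, with 43 bases between their starts. S100a4 (ENSMUSG00000001020.8, 90603771 to 90606045) and S100a6 (ENSMUSG00000001025.8, 90612882 to 90624181) follow each other on the plus strand. The most abundant transcript had 3 exons in 7 members and 4 exons in S100a13. Exons of S100a4 overlap those of Gm42674, a gene listed at 0 in all 4 libraries, and no exon of the other members overlapped another gene in the GENCODE vM21 annotation. The pseudogene S100a11-ps was also listed at 0.

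Promoter windows of 7 members, from 250 bases before to 50 bases after the RefSeq start (GRCm38.p6), were searched for 6 short motifs on both strands. The motifs were TATAAA (the TATA box), CCAAT (the CCAAT box), GGGCGG (the GC box), TGANTCA (AP-1), TTGCNNAA (C/EBP) and AGGAAG (PU.1). C/EBP and PU.1 factors are the classical regulators of granulocyte genes. S100a10 was not among the windows. The windows of S100a8, S100a9, S100a4 and S100a6 are shown because they belong to the pair that dominates the family and to its neighbours with and without a TATA box. Capitals mark TATAAA in S100a8, S100a9 and S100a4 and, in S100a9, also the match to TTGCNNAA.
S100a8, chr3:90668821-90669120, plus strand: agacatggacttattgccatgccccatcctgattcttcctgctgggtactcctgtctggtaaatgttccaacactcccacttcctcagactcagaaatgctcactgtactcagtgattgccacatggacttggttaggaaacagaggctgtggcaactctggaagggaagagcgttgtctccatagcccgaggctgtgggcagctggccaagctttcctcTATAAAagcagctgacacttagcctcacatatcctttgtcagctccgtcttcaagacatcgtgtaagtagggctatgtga
S100a9, chr3:90695672-90695971, minus strand: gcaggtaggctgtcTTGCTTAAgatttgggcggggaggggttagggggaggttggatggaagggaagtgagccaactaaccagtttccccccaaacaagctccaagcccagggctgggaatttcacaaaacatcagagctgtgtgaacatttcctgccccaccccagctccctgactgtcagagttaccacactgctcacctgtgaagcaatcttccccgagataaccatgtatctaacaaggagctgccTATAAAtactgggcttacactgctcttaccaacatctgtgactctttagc
S100a4, chr3:90603520-90603819, plus strand: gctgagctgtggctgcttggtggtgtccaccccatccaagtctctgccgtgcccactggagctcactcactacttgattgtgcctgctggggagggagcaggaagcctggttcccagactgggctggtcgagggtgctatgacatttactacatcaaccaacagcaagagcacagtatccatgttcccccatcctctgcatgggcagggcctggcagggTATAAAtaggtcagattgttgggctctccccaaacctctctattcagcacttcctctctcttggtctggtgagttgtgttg
S100a6, chr3:90612644-90612943, plus strand: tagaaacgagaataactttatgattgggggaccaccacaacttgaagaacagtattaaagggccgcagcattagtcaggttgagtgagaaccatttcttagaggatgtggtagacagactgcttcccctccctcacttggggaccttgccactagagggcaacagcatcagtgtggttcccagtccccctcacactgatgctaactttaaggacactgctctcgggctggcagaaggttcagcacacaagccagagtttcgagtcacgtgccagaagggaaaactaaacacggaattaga

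TATAAA was present in 3 of the 7 windows, and in 13.6% of all 32851 windows of the table. It began 30 bases before the start of S100a8 and 31 bases before that of S100a4. In S100a9 it began at the RefSeq start itself, which lies 10 bases ahead of the start of the transcript with most FPKM. The RefSeq start of S100a8 lies 93 bases inside the transcript with most FPKM. TTGCNNAA was found in S100a9 alone (10.8% of all windows), as TTGCTTAA 236 bases before the start. The letters AGGAAG occurred 2 times in S100a8 and also 2 times in S100a4 (35.4% of all windows). GGGCGG (35.7% of all windows) occurred 3 times in S100a11 and 1 time in S100a9. TGANTCA (7.81%) occurred 2 times in S100a11, and CCAAT (37.4%) occurred 1 time in S100a6. The windows of S100a13 and S100a1, which share 204 bases, held none of the 6 motifs. These matches describe the letters of the windows only.

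Levels within the family ran from 18.6 scaled FPKM (S100a13) to 35688 (S100a8). S100a8 and S100a9 together made up 8.29% and 4.98% of the FPKM of the Ob libraries and 6.49% and 10.9% of the FPKM of the Ob + Exe libraries. They held from 96.3% to 97.8% of the FPKM of the 8 genes. S100a8 ranked between 2 and 4 among all genes of a library, and S100a9 between 4 and 5. S100a11 (rank 73 to 164) and S100a6 (109 to 203) followed, then S100a4 (359 to 663), S100a10 (635 to 839), S100a1 (1641 to 2092) and S100a13 (3094 to 3620). Each gene was above the next of this order in all 4 libraries (two-sided p = 0.125 by exact sign permutation over the 4 libraries, which cannot go lower), except for S100a11 and S100a6. S100a11 exceeded S100a6 in 3 of 4 libraries, with a mean log2 ratio of 0.41 and an SD of 0.38 (two-sided exact permutation p = 0.25).

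**Figure D1:**
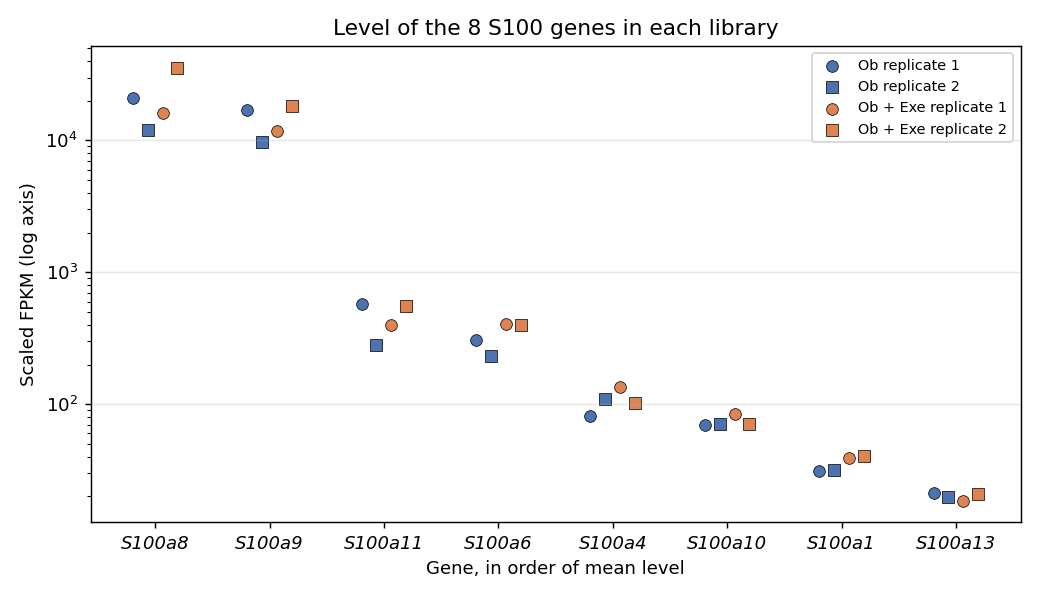
Scaled FPKM (log axis) of the 8 S100 genes, with 1 point per library, circles for replicate 1 and squares for replicate 2, Ob in blue and Ob + Exe in orange. S100a8 and S100a9 lie between 9680.0 and 35688, all other members below 574, and the groups overlap for 5 of the 8 genes.

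None of the 8 S100 genes was called different between Ob + Exe and Ob by limma, where a call required a log2 fold change over 1 in size with an unadjusted p under 0.05. Of all genes tested, 3.71% were called, 0.979% higher and 2.73% lower in Ob + Exe, and none had an adjusted p under 0.05. One member, S100a6, had an unadjusted p under 0.05, as did 5.02% of all genes, and limma voom on read equivalents also called 0 members. The fitted differences were above 0 for 7 members and below 0 for S100a13, with a median log2 fold change of 0.27, beside -0.02 over all genes tested. Both Ob + Exe libraries were above both Ob libraries for 3 members (S100a6, S100a10 and S100a1) and below them for 0. Such a separation was found upward for 14% of all genes, downward for 18.7%, and in either direction for 32.7%. For a single value, 2 mice in each group allow a two-sided exact permutation p of 0.333 at the lowest. The limma p-values rest on the spread between these 4 libraries only. In them the variance of each gene is moderated toward that of genes of like level (2 residual and 3.73 prior degrees of freedom).

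**Figure D2:**
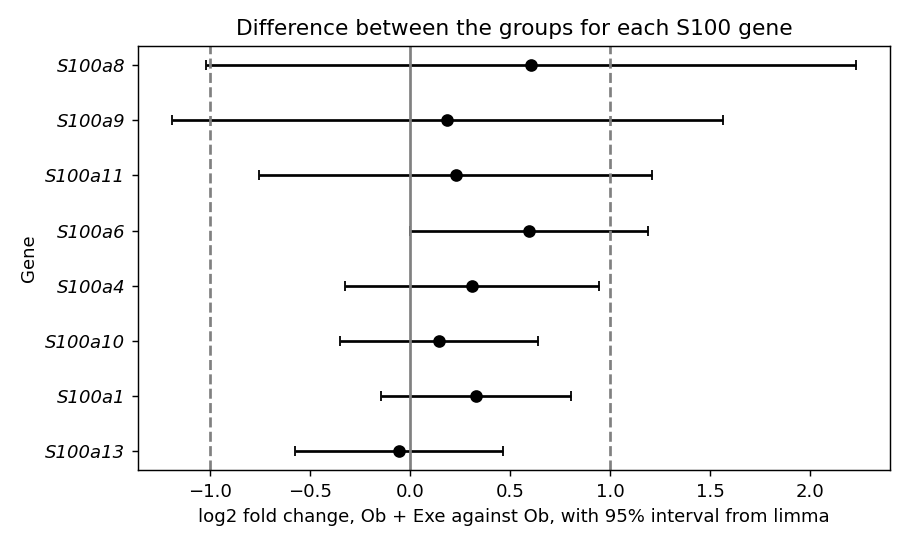
log2 fold change (Ob + Exe against Ob) of the 8 S100 genes, as points with the 95% interval from limma, a solid line at 0 and dashed lines at -1 and 1. The interval of S100a6 starts at 0.00092, just above 0, the other 7 intervals include 0, and those of S100a8 and S100a9 reach from below -1 to above 1.

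S100a8 was the most abundant member and the one with the widest range. It was measured at 20907 and 12006 scaled FPKM in the Ob libraries, 16456 ± 6294 (SD, n = 2), and at 16281 and 35688 in those of Ob + Exe, 25984 ± 13723 (SD, n = 2). The second Ob + Exe library was the highest and the second Ob library the lowest, and the groups overlapped. Its log2 fold change of 0.61 (standard error (SE) 0.66, limma adjusted p = 0.965) had a 95% interval from -1.02 to 2.23. Without the second Ob + Exe library the difference was 0.03, and without the first it was 1.17. The depth was not the limit here, since between 387601 and 955786 read equivalents (coverage times transcript length over the read length of 150 bases) stood behind each value.

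S100a9, the partner of S100a8 in calprotectin, had 17126 and 9680.0 scaled FPKM in Ob, 13403 ± 5265 (SD, n = 2), and 11816 and 18196 in Ob + Exe, 15006 ± 4512 (SD, n = 2). The libraries stood in the same order as for S100a8, with the groups overlapping. The log2 fold change was 0.19 (SE 0.56, limma adjusted p = 0.984). It turned to -0.13 without the second Ob + Exe library and to -0.23 without the second Ob library.

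The ratio of S100a8 to S100a9 varied less than either gene. It was 1.22 and 1.24 in the Ob libraries versus 1.38 and 1.96 in the Ob + Exe libraries. Both Ob + Exe libraries were thus higher, by 0.42 on the log2 scale with a within-group SD of 0.25 (two-sided exact permutation p = 0.333, the smallest possible). Without the second Ob + Exe library the difference was 0.16, and without the first it was 0.67. A ratio within a library does not depend on the scaling between libraries.

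S100a8 and S100a9 were set beside 14 neutrophil markers in 3 lists, for the primary granules of precursors (Mpo, Elane, Prtn3, Ctsg), the secondary granules of later stages (Camp, Ltf, Ngp, Lcn2) and mature neutrophils (Ly6g, Mmp8, Mmp9, Cxcr2, Csf3r, Retnlg). All 14 were tested, none was called or had an unadjusted p under 0.05 in limma, and none was at 0 in all libraries. The summed level of the mature list was 2419 and 1331 scaled FPKM in Ob versus 2106 and 3512 in Ob + Exe, in the same order of libraries as S100a8. The secondary granule list had 10214 and 5873 in Ob versus 7215 and 10099 in Ob + Exe. The primary granule list had 1162 and 644 in Ob versus 1288 and 816 in Ob + Exe, so here the first Ob + Exe library was above the second. The part of neutrophil numbers in the levels of S100a8 and S100a9 was not tested.

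The mean log2 value of S100a8 and S100a9 lay above that of the mature neutrophil list by 6.65 and 6.66 in Ob versus 6.64 and 6.64 in Ob + Exe. It was nearly the same in 4 libraries in which S100a8 itself ran from 12006 to 35688, though both Ob + Exe values were the lower ones (difference -0.01, two-sided exact permutation p = 0.333). For each gene alone the distance from the mature list was less even. S100a8 stood 6.79 and 6.81 above it in Ob versus 6.87 and 7.12 in Ob + Exe, whereas S100a9 stood 6.50 and 6.50 above it in Ob versus 6.41 and 6.15 in Ob + Exe. Against all 14 genes the mean of the pair lay 5.52 and 5.55 higher in Ob versus 5.35 and 5.91 higher in Ob + Exe, a difference between the groups of 0.10 with a within-group SD of 0.28 (two-sided exact permutation p = 1). Against the primary granule list the values were 6.23 and 6.36 in Ob versus 5.69 and 7.27 in Ob + Exe, the widest spread of the 3 lists.

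**Figure D3:**
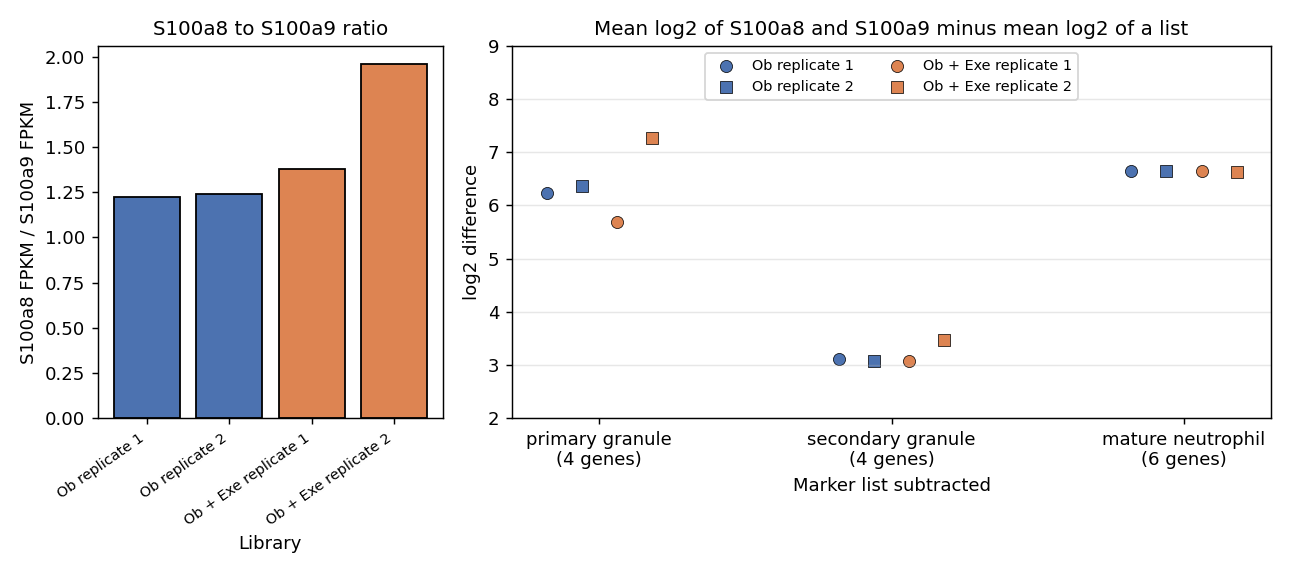
Left, the S100a8 to S100a9 FPKM ratio in each library as bars from 0, Ob in blue and Ob + Exe in orange. Right, the mean log2 value of S100a8 and S100a9 minus the mean log2 value of each neutrophil list, 1 point per library. The points for the mature list lie between 6.64 and 6.66, and those for the primary granule list between 5.69 and 7.27.

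A pattern with Ob replicate 1 above replicate 2 and Ob + Exe replicate 2 above replicate 1 was shown by 4 members, S100a8, S100a9, S100a11 and S100a13. It was also shown by 5 of the 6 mature neutrophil genes, by 4 of the 4 secondary granule genes and by 0 of the 4 primary granule genes, beside 28.8% of all genes tested and 34.8% of those with a mean of at least 10 FPKM. Likeness of pattern was measured over the 4 libraries as the root mean square difference of centred log2 values, against 5818 other genes with a mean of at least 10 FPKM. Nearest to S100a8 were Fgl2, Sgms2, Il1rn (the interleukin-1 receptor antagonist), C5ar1 (the receptor of complement C5a) and Cldn1, at 0.067 to 0.092. Among the 5 genes nearest to S100a9 were Rac2 (a small GTPase of blood cells), the enolase Eno1, the neutrophil surface protein Cd177 and the Fc receptor Fcgr3, at 0.048 to 0.058. Among the members, S100a11 was number 20 in likeness to S100a9, at 0.090. At a distance of 0.28, S100a9 was number 171 in likeness to S100a8, and S100a8 was number 1011 in likeness to S100a9. With 4 libraries many genes share a pattern, and these names are a description without a test.

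S100a11 and S100a10 are best known as partners of annexins. S100a11, the partner of annexin A1, had 574 and 282 scaled FPKM in Ob, 428 ± 206 (SD, n = 2), and 399 and 557 in Ob + Exe, 478 ± 112 (SD, n = 2). The Ob pair enclosed both Ob + Exe libraries, and the log2 fold change was 0.23 (SE 0.40, limma adjusted p = 0.976). It turned to -0.02 without the second Ob + Exe library and to -0.29 without the second Ob library. On the log2 scale S100a11 lay between 4.89 and 5.10 below S100a9 in every library.

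S100a10 does not need calcium to bind its partner, annexin A2, with which it forms a membrane complex that gathers plasminogen. Its level was 69.8 and 70.2 scaled FPKM in Ob, 70.0 ± 0.319 (SD, n = 2), and 84.2 and 71.1 in Ob + Exe, 77.6 ± 9.31 (SD, n = 2). The second Ob + Exe library lay just above the Ob libraries, so the groups did not overlap, but the log2 fold change was only 0.14 (SE 0.20, limma adjusted p = 0.9751). The ratio of S100a10 to Anxa2, which encodes annexin A2, was 0.413 and 0.518 in Ob versus 0.598 and 0.422 in Ob + Exe.

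S100a6, or calcyclin, binds the protein encoded by Cacybp and is common in proliferating and in mesenchymal cells. Its level was 309 and 230.5 scaled FPKM in Ob, 269.7 ± 55.5 (SD, n = 2), and 405 and 401 in Ob + Exe, 403 ± 2.52 (SD, n = 2). The Ob + Exe libraries were nearly equal and both above the Ob libraries. Its log2 fold change of 0.60 (standard error 0.24, unadjusted p = 0.0497, limma adjusted p = 0.960) was under the fold threshold, and its 95% interval ran from 0.00092 to 1.19. The unadjusted p was 0.121 with the replicate number as a block and 0.0197 with the crossed pairing of the numbers, with adjusted p from 0.488 to 0.99985 over the 11 alternatives that use all libraries.

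Transcript shares of S100a6 varied between the libraries. StringTie divides reads between overlapping transcripts, so shares are estimates, and they were not tested. The transcript ENSMUST00000001051.8 held 95.1% and 96.2% of the gene in Ob versus 90.2% and 84.4% in Ob + Exe. The intron-retaining transcript ENSMUST00000197189.1 held 3.71% and 2.70% in Ob versus 5.73% and 4.50% in Ob + Exe. Another one, ENSMUST00000200289.1, which runs from 90613760 to 90624181 and is annotated as subject to nonsense-mediated decay, held 1.10% and 0.886% in Ob versus 3.91% and 10.9% in Ob + Exe. In scaled FPKM ENSMUST00000200289.1 was at 3.41 and 2.04 against 15.8 and 43.9, with the Ob + Exe libraries above the Ob libraries. Such a separation was found for 14% of all genes and was not counted over all transcripts. Without this transcript, S100a6 stood at 306 and 228 in Ob versus 389 and 358 in Ob + Exe, a log2 difference of 0.50 with the groups still apart.

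For S100a8 the intron-retaining transcript ENSMUST00000198156.1 held 1.96% and 4.50% in Ob versus 9.07% and 1.96% in Ob + Exe, so it was the first Ob + Exe library that stood out. The longer S100a9 transcript, ENSMUST00000117167.1, held 11.2% and 14.9% in Ob versus 6.65% and 14.02% in Ob + Exe. In S100a4, S100a10 and S100a1 the leading transcript held at least 94.6% in every library, and S100a11 and S100a13 have 1 annotated transcript each.

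**Figure D4:**
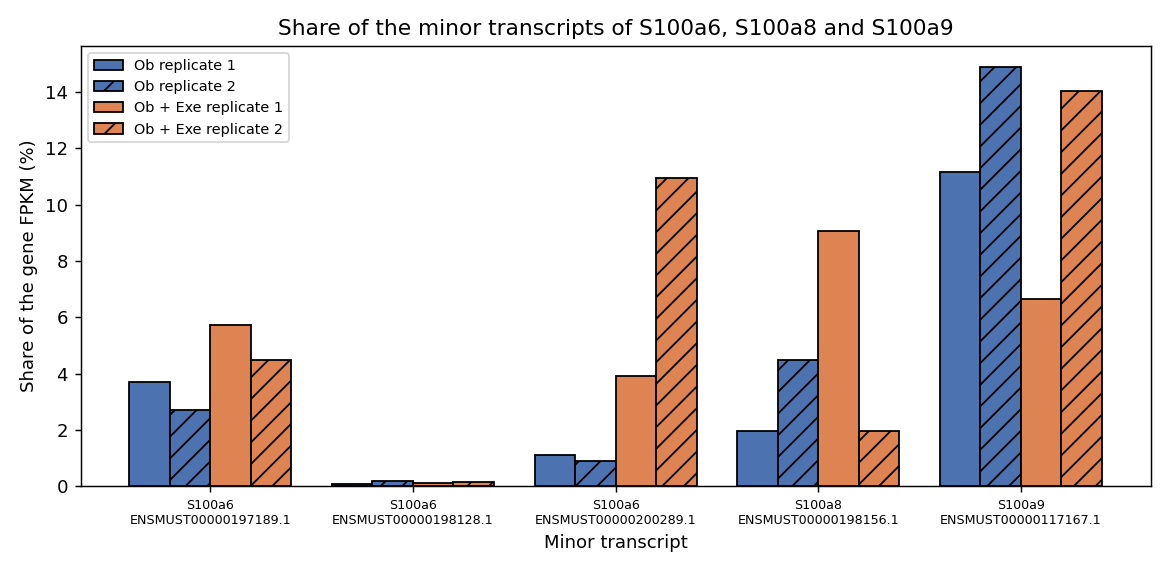
Share of the gene FPKM (percent, bars from 0) held by each minor transcript of S100a6, S100a8 and S100a9, in Ob (blue) and Ob + Exe (orange), hatched for replicate 2. The S100a6 transcript ENSMUST00000200289.1 held at most 1.10% in Ob, against 3.91% and 10.9% in Ob + Exe. The share of ENSMUST00000197189.1 was also higher in both Ob + Exe libraries, while the S100a8 and S100a9 minor transcripts overlap between the groups.

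S100a4, also known as fibroblast-specific protein or metastasin, binds the heavy chain of non-muscle myosin encoded by Myh9. It was at 81.7 and 110.5 scaled FPKM in Ob, 96.1 ± 20.3 (SD, n = 2), and at 136 and 102 in Ob + Exe, 119 ± 23.6 (SD, n = 2). The second Ob + Exe library lay between the Ob libraries, and the log2 fold change was 0.31 (SE 0.26, limma adjusted p = 0.960). Of the 9 fibroblast and stromal markers, 4 had a fitted difference above 0 and 5 below 0. The 1 called was Col1a1, lower in Ob + Exe (3.13 and 3.05 against 1.18 and 1.84), beside 2.73% of all genes called lower. For Col1a2 and Cxcl12 the groups overlapped, and Dcn was higher in both Ob + Exe libraries. Of the 9 markers, 2 were separated upward and 1 downward, beside 14% and 18.7% of all genes. The part of stromal cells in the S100a4 values was not tested.

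S100a1, a regulator of calcium release and uptake in heart and skeletal muscle, had 31.2 and 31.9 scaled FPKM in Ob, 31.6 ± 0.532 (SD, n = 2), and 39.2 and 40.2 in Ob + Exe, 39.7 ± 0.729 (SD, n = 2). Replicates differed by little and both Ob + Exe libraries were higher. The log2 fold change was 0.33 (SE 0.19, limma adjusted p = 0.960), and it stayed between 0.30 and 0.35 with any 1 library left out. Between 1430 and 1537 read equivalents stood behind these values.

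The tested markers of skeletal muscle had fitted differences above 0, as had 7 of the 8 S100 members, S100a1 among them. The summed level of the 8 muscle genes was 11.4 and 7.47 scaled FPKM in Ob versus 17.0 and 15.2 in Ob + Exe. Of the 6 tested, all 6 had a fitted difference above 0 and 1 was called, the actin gene Acta1 at 2.58 and 1.002 against 4.65 and 5.24. None of the 8 was at 0 in all libraries, but Ckm, Myh1, Myh4 and Mb were at 0 in Ob replicate 2. Of all 18596 genes, 8903 had a fitted difference above 0 and 0.979% were called higher. The muscle sum was below the level of S100a1 alone in every library, and the part of muscle RNA in the S100a1 values was not tested.

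S100a13, which takes part in the release of the leaderless proteins Fgf1 and interleukin-1 alpha, was at 21.2 and 19.7 scaled FPKM in Ob, 20.5 ± 1.07 (SD, n = 2), and at 18.6 and 21.0 in Ob + Exe, 19.8 ± 1.68 (SD, n = 2). The groups overlapped, with a log2 fold change of -0.05 (SE 0.21, limma adjusted p = 0.985) and a 95% interval from -0.57 to 0.47. The ratio of S100a1 to its head-to-head neighbour S100a13 was 1.47 and 1.62 in Ob versus 2.11 and 1.92 in Ob + Exe. The ratio was higher in both Ob + Exe libraries (two-sided exact permutation p = 0.333, the smallest possible).

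Other S100 genes were low, and all but S100a16 were near the lower end of detection. Of a list of 8 (S100a3, S100a5, S100a7a, S100a14, S100a16, S100b, S100g and S100z), 4 passed the filter and 2 were at 0 in all libraries. S100a16 was the most abundant, at 2.29 and 2.89 scaled FPKM in Ob versus 3.28 and 4.03 in Ob + Exe (log2 fold change 0.48, limma adjusted p = 0.960). S100b, a gene of glia and cartilage, was the 1 called, at 0.850 and 1.52 in Ob versus 0 and 0.285 in Ob + Exe. Its log2 fold change of -2.66 (SE 0.86, limma adjusted p = 0.960) rested on 86, 149, 0 and 23 read equivalents and depends on the added 0.1. With 1 added it was -0.93 and not called, and the call was also lost with 0.01 added and without Ob replicate 1, Ob replicate 2 or Ob + Exe replicate 1. Of all genes, 2.73% were called lower. The 6 cartilage markers summed to 1.38 and 1.46 scaled FPKM in Ob versus 0.969 and 0.529 in Ob + Exe. Of them 3 were tested, 0 called and none at 0 in all libraries. Among the 3 tested, 1 had a fitted difference above 0 and 2 below 0. The others, Acan, Sox9 and Col9a1, reached at most 0.0858 scaled FPKM. The part of cartilage in the S100b values was not tested.

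Inside the chromosome 3 cluster, other S100 genes of low level lay between the members. S100a5, between S100a4 and S100a6, was listed at 0 in all 4 libraries, and S100a7a, next to S100a8, reached at most 0.258 scaled FPKM. S100a2 (0 to 0.971), S100a3 (0 to 0.309) and S100a14 (0 to 0.394) were also low.

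**Figure D5:**
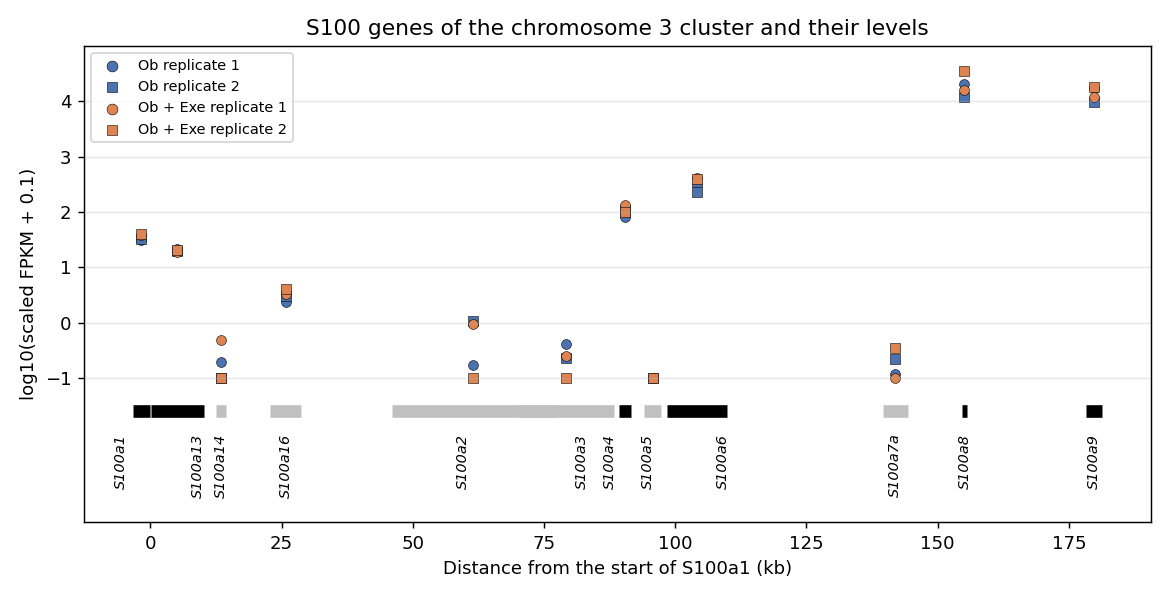
S100 genes of the chromosome 3 cluster by distance from the start of S100a1 (kb), members as black bars and other S100 genes as grey bars, with the level in each library above as log10(scaled FPKM + 0.1), where -1 is a value of 0. S100a8 and S100a9 lie at about 4 on this scale in all libraries, whereas S100a7a and S100a5 beside the members lie below 0.

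Receptors and co-receptors through which extracellular S100 proteins act were next. All 12 of the list were tested, none was called or had an unadjusted p under 0.05 in limma, and 9 had a fitted difference above 0 and 3 below 0, with a median log2 fold change of 0.34. The most abundant was Bsg (basigin), at 259 and 259 scaled FPKM in Ob versus 229.7 and 245 in Ob + Exe (log2 fold change -0.12). Nptn (neuroplastin) had 96.1 and 90.9 against 70.4 and 101 (-0.15), and Cd33 had 56.1 and 37.1 against 40.7 and 88.0 (0.39). The groups overlapped for Nptn and Cd33, and Bsg was lower in both Ob + Exe libraries. Of the 12 receptors, 3 were separated upward and 1 downward, beside 14% and 18.7% of all genes.

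Toll-like receptor 4, the main receptor named for calprotectin, was far less abundant, with Tlr4 at 4.08 and 2.51 in Ob versus 3.83 and 7.56 in Ob + Exe (log2 fold change 0.73, limma adjusted p = 0.960). Ager, the receptor for advanced glycation end products, had 6.43 and 10.1 against 15.96 and 5.22 (0.18), and for each the groups overlapped. These 2 genes are named for their role and not by the rule.

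Of 18 intracellular partners and targets, 17 were tested and none was called, and 1 had an unadjusted p under 0.05 in limma. The fitted difference was above 0 for 9 and below 0 for 8, and the median log2 fold change was 0.03. The partner of S100a11, Anxa1, was the most abundant at 634 and 347 scaled FPKM in Ob versus 492 and 817 in Ob + Exe (log2 fold change 0.43, limma adjusted p = 0.960). Cyba, a subunit of the phagocyte oxidase to which calprotectin delivers arachidonic acid, had 267 and 192 against 209 and 259 (0.04). Anxa2 had 169 and 136 against 141 and 168 (0.03). In all 3 the groups overlapped.

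Transcription factors that act on S100a8 and S100a9 were counted last. All 7 were tested and none was called or had an unadjusted p under 0.05 in limma, with 6 fitted differences above 0, 1 below 0 and a median of 0.16. Cebpb had 67.7 and 84.0 scaled FPKM in Ob versus 74.2 and 96.0 in Ob + Exe (log2 fold change 0.16), and Spi1, which encodes PU.1, had 91.8 and 59.9 against 72.7 and 91.1 (0.13). Cebpe, needed for late neutrophil maturation, had 57.7 and 44.7 against 72.2 and 68.2 (0.47, limma adjusted p = 0.960). Both Ob + Exe libraries were above both Ob libraries for 2 of the 7, Cebpe and Cebpd, beside 14% of all genes.

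Other cell types were followed by their marker lists, beside 3.71% of all genes called and 2.73% called lower. Monocyte and macrophage genes had 0 of 10 called, with a summed level of 531 to 586 scaled FPKM in Ob versus 540 to 601 in Ob + Exe. B cell genes had 1 of 8 called, lower in Ob + Exe (189 to 199 against 125 to 157), megakaryocyte and platelet genes 1 of 6, also lower (333 to 456 against 135 to 378), and osteoblast genes 1 of 6, lower as well (15.1 to 23.4 against 13.7 to 13.8). T and NK cell genes (40.4 to 69.8 against 48.3 to 72.9), erythroid genes (73304 to 73362 against 54511 to 81499), endothelial genes (17.2 to 18.4 against 11.7 to 13.9) and adipocyte genes (68.9 to 73.0 against 92.7 to 117) had 0 called. The groups were separated, with Ob + Exe lower, for 5 of 6 endothelial genes, 4 of 8 B cell genes, 3 of 6 osteoblast genes and 2 of 6 megakaryocyte and platelet genes, beside 18.7% of all genes. Upward separation was found for 4 of 10 monocyte and macrophage genes (2 were lower) and for 4 of the 6 skeletal muscle genes tested, beside 14% of all genes. Among erythroid genes 1 was separated upward and 2 downward, and among T and NK cell genes 1 in each direction. An unadjusted p under 0.05 in limma was found for 1 adipocyte gene, Fabp4, and for 0 genes of the monocyte, T and NK cell, erythroid and endothelial lists. Fabp4 made up most of the adipocyte sum, at 59.5 and 57.5 scaled FPKM in Ob versus 104.5 and 77.7 in Ob + Exe. For Adipoq and Pparg the groups overlapped.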

How the data were processed

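The authors used fastp for trimming, dropped rRNA reads, aligned with HISAT2 to GRCm38, used SAMtools for filtering, and had StringTie estimate the transcripts of GENCODE vM25 (tool names also per the labels, versions not given in the sources used here). The authors deposited, per library, the coverage signal, which still carries the depth, and FPKM, for 142604 transcripts. The library kit is not stated to mark strand. The aligned bases were 8702 to 9952 Mb per library, as given by the ratio of coverage to FPKM. The annotated transcripts held 44310505 to 53038186 read equivalents per library (coverage times length over 150 bases). The precision is limited by the 2 mice per group and, for genes near 0, also by the depth. No pair of libraries held the same values.

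Transcript FPKM were summed to genes, genes with a mean of at least 0.1 FPKM were kept, libraries were divided by median-of-ratios factors (0.949 to 1.03, from genes with a mean of at least 1 FPKM), and log2(FPKM + 0.1) was compared between the groups by limma 3.58.1, run in R 4.3.3 (intensity trend, 2 residual and 3.73 prior degrees of freedom, Benjamini-Hochberg adjustment over 18596 genes). Fold changes on this scale understate the change of low genes. Single values per library were compared with exact permutation tests (scipy 1.17.1). Python 3.11.15, pandas 2.3.3 and matplotlib 3.10.9 served for tables and figures. The fit was first tested on simulated data. Gene types came from GENCODE vM21, in which 55141 of 55401 genes were found.

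The members, gene lists and tests were chosen with earlier results of these data known. All members are named, and from each related list the called genes and the 3 of highest mean FPKM. The likeness rule takes 5 genes each for S100a8 and S100a9, and 1 of them is not reported here. The alternatives comprised other minima and pseudocounts, no scaling, quantile or upper quartile scaling, no trend, limma voom on read equivalents, the replicate block and each library left out. The crossed pairing was added after seeing the data.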

Additional observations from a re-analysis of the deposited data

How the results depend on the processing

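The number of S100 members called stayed at 0 under each of the 11 alternatives of filter, pseudocount, scaling, test and pairing and with any 1 library left out. No scaling choice changed the direction of a member. Of 120 member values under alternatives, 115 kept their direction, and the 5 that turned did so with a library left out: S100a9 and S100a11 without Ob replicate 2 or Ob + Exe replicate 2, and S100a13 (0.031) without Ob + Exe replicate 1. With 1 library left out, the lone library of its group is assumed to vary like the others, and the log2 fold change ranged from 0.03 to 1.17 for S100a8, from -0.23 to 0.59 for S100a9, from 0.37 to 0.80 for S100a6, from 0.08 to 0.52 for S100a4, from 0.02 to 0.26 for S100a10, from -0.29 to 0.73 for S100a11, from -0.15 to 0.03 for S100a13, from 0.30 to 0.35 for S100a1 and from -3.66 to -1.69 for S100b.

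The S100a8 to S100a9 difference ranged from 0.16 to 0.67, and that of the pair against the neutrophil genes from -0.18 to 0.38, and with mature neutrophil genes only it was -0.011. The 1 call in the related lists, S100b, became 0 with a minimum of 1 FPKM and with a pseudocount of 1 or 0.01. With 1 library left out, calls also fell on other genes of these lists, and not always downward. The count of called genes was 267 with a minimum of 1 FPKM, 224 with a pseudocount of 1, 1061 without the intensity trend, 453 with limma voom, and 746 to 1924 with 1 library left out, the highest without Ob + Exe replicate 2 (1264 without Ob + Exe replicate 1). Quantile normalization called 246 higher and 416 lower, beside 182 and 508. The cause of these changes was not tested.

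The replicate numbers share no stated litter or batch. With the replicate block 776 genes and 0 members were called. The differences between replicates 1 and 2 of the groups had a correlation of -0.106 over all genes tested and -0.235 over those averaging at least 1 FPKM (12409 genes), and the crossed pairing called 782 genes and 0 members.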
